A study of Homo sapiens with 2 samples.

Results

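The 10 genes described here are markers of epithelial adhesion and of the mesenchymal state. They are the cadherins CDH1 and CDH3, the adhesion molecule EPCAM, the catenins CTNNB1 and JUP, the desmosomal linker DSP, the intermediate filament VIM, the matrix protein FN1, the hyaluronan receptor CD44 and the basement membrane proteoglycan AGRN. They were chosen by name, and each cytosine with a coverage of at least 10 on a same-strand exon of 1 of these genes was taken (GENCODE release 44 basic transcripts on hg19, which is GRCh37). Such cytosines are called kept sites below. The 10 genes belong to 10166 protein-coding genes with a kept site in at least 1 line. They held 7635 of the 1584002 kept sites in MCF10A. In MDA-MB-468 they held 5416 of 1271253, with 8884 sites in either line and 4167 in both.

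RNA BS-Seq was applied to 2 human cell lines, with 1 library per line and no replicates. MCF10A is an immortalized, nontumorigenic mammary epithelial line, and MDA-MB-468 is a line from a breast cancer. Neither line was treated or genetically altered for the experiment, and in both poly(A)-selected RNA was converted with bisulfite at 60 degrees for 8 hours. The labels name DMEM for both lines, while the methods give them different growth media, with EGF, hydrocortisone and insulin for MCF10A alone, so line and medium cannot be told apart. Each line is 1 culture as far as the labels say, and every comparison between the lines therefore compares 2 libraries and not 2 kinds of tissue.

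Bisulfite turns unmethylated cytosine into uracil, which is read as T, while 5-methylcytosine (m5C) stays C. The methylation ratio of a site is its unconverted count over its coverage, the sum of unconverted and converted counts. Cytosines in stable RNA structure can also stay unconverted, so an unconverted count alone does not identify m5C. A site is called an m5C site here when its unconverted count exceeded the nonconversion rate of its library in a one-sided Fisher's exact test with Benjamini-Hochberg adjustment over all kept sites (adjusted p under 0.05). The nonconversion rate, taken over all kept sites, was 1.99% for MCF10A, with 1.81% for MDA-MB-468.

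Epithelial cells hold to each other through adherens junctions, in which cadherins are linked by catenins to actin, and through desmosomes, in which JUP and DSP link desmosomal cadherins to keratin. In the epithelial-mesenchymal transition, cells lose E-cadherin and these junctions and gain vimentin and fibronectin. Loss of E-cadherin and gain of vimentin are widely used to mark that state in breast cells.

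Many of the m5C sites of these genes lay in short stretches, and 3 of the stretches carry the results below. The first, in exon 25 of AGRN, is shown as called in each line because it was the stretch with most m5C sites called in both. Its windows are chr1:984689-984717 and chr1:984690-984717 on the plus strand. The second, in exon 1 of JUP (chr17:39942859-39942887, minus strand), had the highest methylation ratios of all 10 genes. The third, in exon 1 of FN1 (chr2:216300494-216300520, minus strand), is shown as the stretch of FN1 with most m5C sites. Sequences are from GRCh37, written 5′ to 3′ in the direction of the RNA, and capitals mark the cytosines called as m5C sites.

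AGRN exon 25, called in MCF10A: gagctgtCCCggCactggcgCCggggcac
AGRN exon 25, called in MDA-MB-468: agctgtcCCggCactggcgCCggggcac
JUP exon 1, called in MDA-MB-468: cccacCCCggCCCgaCccCgaCCCggccc
FN1 exon 1, called in MCF10A: taggggtCCggggCCCgggCtgctgct

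Smaller stretches are shown for comparison of their surroundings. That of CDH3 exon 5 spans chr16:68712455-68712477, and that of the CD44 3′UTR spans chr11:35253086-35253112. Those of AGRN exon 10 span chr1:979373-979398 (MCF10A) and chr1:979279-979300 (MDA-MB-468). All 4 are on the plus strand.

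CDH3 exon 5, called in MCF10A: ccgggggCagacagCCcccctga
CD44 3′UTR, called in MCF10A: ggatataCctctgttttCaCgatagaa
AGRN exon 10, called in MCF10A: gaggaggCCCgggcagggCcgtgcga
AGRN exon 10, called in MDA-MB-468: ccccccgCccggccCcgtgtgt

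The AGRN exon 25, JUP and FN1 stretches hold called runs of CC or CCC as well as single called cytosines. The CD44 stretch holds 3 single called cytosines, mostly among T and A. The 5 capitals of the MDA-MB-468 window of AGRN exon 25 are all capitals in the MCF10A window too.

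The libraries stood furthest apart in VIM and FN1, covered deeply in MCF10A, and in CDH1 and EPCAM, covered in MDA-MB-468 alone. Coverage level is given as counts at kept sites per exonic cytosine of the gene, per 1000000 counts at kept nuclear sites. Exonic cytosines were counted over all basic transcripts of a gene, and sites under a coverage of 10 add nothing. Levels of different genes therefore compare only roughly. CTNNB1, for example, has 39 basic transcripts, and 58 of its 748 cytosines in the 5′UTR were kept in MCF10A. The level is a description, with no test. In bulk RNA, fewer cells that express a gene and less RNA per cell cannot be told apart. The mesenchymal genes VIM and FN1 led in MCF10A, with levels of 9.11 and 34.1. In MDA-MB-468, FN1 was at 0.0131 and VIM had no kept site. CDH1 and EPCAM had no kept site in MCF10A, against levels of 0.0424 and 0.308 in MDA-MB-468. The paper describes MCF10A as mammary epithelial, and 2 defining epithelial markers were thus without a kept site in that library. The identity of each library was taken from its label and was not checked in another way.

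**Figure D1:**
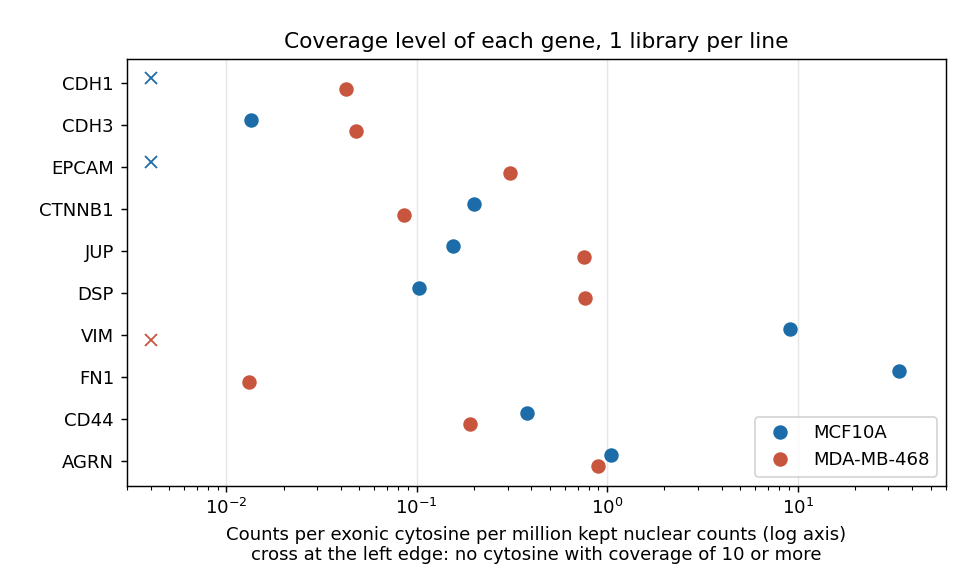
Coverage level of the 10 genes (counts at kept sites per exonic cytosine per 1000000 kept nuclear counts, log axis) in MCF10A and MDA-MB-468, 1 point per library with no error since there are no replicates. FN1 at 34.1 and VIM at 9.11 in MCF10A are the highest levels, and crosses mark CDH1 and EPCAM in MCF10A and VIM in MDA-MB-468, which had no kept site.

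The desmosomal genes JUP and DSP had levels of 0.155 and 0.103 in MCF10A and 0.754 and 0.765 in MDA-MB-468, which is 4.86 and 7.43 times the MCF10A level. CDH3, the P-cadherin gene, was 3.54 times higher in MDA-MB-468 (0.0478 against 0.0135), and 1.91 times (0.0665 against 0.0349) when sites from a coverage of 5 up were counted. The order was turned for CTNNB1 (0.201 in MCF10A against 0.0861) and CD44 (0.379 and 0.191). AGRN was the member closest in level, with 1.05 against 0.897. Among the 8858 protein-coding genes with a kept site in MCF10A, FN1 ranked 1st and VIM 7th by counts. AGRN ranked 20th there and 30th of 8089 in MDA-MB-468.

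Markers of other cells were read from lists of 22 genes, of which PECAM1 was not analysed here. All 7 epithelial markers had kept sites in MDA-MB-468, with a summed level of 47.8 and levels of 0.0424 to 30.6. In MCF10A 5 of 7 had kept sites, and their summed level was 5.99, of which KRT7 made 5.25. KRT19 was at 0.0202 there. KRT5, a basal keratin, was the 1 marker of the 7 with the higher level in MCF10A (0.425 against 0.197). Of 6 fibroblast markers only DCN had kept sites in MCF10A (0.0485) and only COL1A1 in MDA-MB-468 (0.0531), while COL1A2, COL3A1, LUM and PDGFRB had none in either. No kept site lay on the 3 endothelial markers analysed, CDH5, VWF and KDR, or on the 5 blood markers PTPRC, CD3E, CD79A, LYZ and HBB. Whether cells expressing DCN had a part in the VIM and FN1 levels of MCF10A was not tested.

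Over all 10 genes, 59 m5C sites were called in MCF10A, which is 0.773% of their kept sites, beside 0.960% of all kept sites of the library. In MDA-MB-468 there were 22, which is 0.406%, beside 0.840%. In MCF10A 7 of the 8 genes with kept sites had an m5C site, beside 21.1% of protein-coding genes. The count of genes depends on how many cytosines of a gene were kept, which ran from 94 to 2321 among these 8. In MDA-MB-468 the m5C sites lay on 3 of 9 genes, beside 16.9%. FN1 alone gave 31 of the 59 sites and 4764698 of the 5342773 counts in MCF10A, where the 10 genes took 8.85% of all kept nuclear counts. Without FN1, 28 m5C sites remained in MCF10A (0.515%), while MDA-MB-468 still had 22.

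The share of all counts that were unconverted was 1.27% in MCF10A (95% Wilson interval 1.26 to 1.28%) against 1.56% in MDA-MB-468 (1.51 to 1.61%), both under the nonconversion rate of the library. Without FN1 the MCF10A share was 1.48% (1.45 to 1.51%), below that of MDA-MB-468. Wilson intervals here cover counting error only, and they are too narrow because neighboring cytosines share reads and the reads carry no molecular identifiers. The unconverted share went down with coverage in each library. Over all nuclear kept sites of MCF10A it was 2.37% at coverages of 10 to 19 and 1.49% at 200 or more. In MDA-MB-468 it was 1.92% and 1.62%. Member sites went from 2.81% to 1.25% in MCF10A and from 2.27% to 1.14% in MDA-MB-468.

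**Figure D2:**
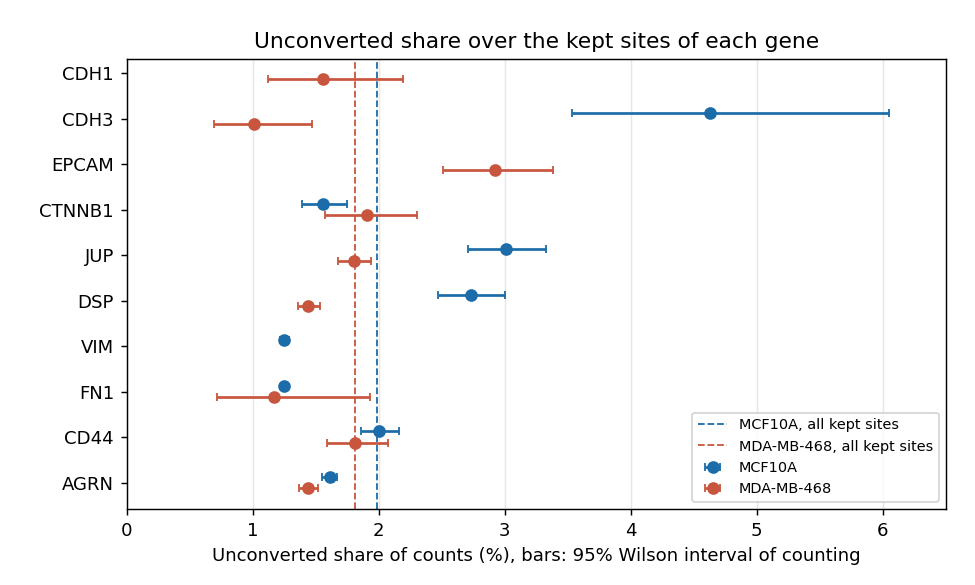
Unconverted share of the counts (%) at the kept sites of each gene, with 95% Wilson intervals for counting error, and the nonconversion rate of each library as a dashed line (1.99% in MCF10A, 1.81% in MDA-MB-468). CDH3 at 4.63%, JUP at 3.01% and DSP at 2.73% in MCF10A and EPCAM at 2.92% in MDA-MB-468 lie above their lines, while VIM and FN1 in MCF10A lie at 1.25%.

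CDH1 (chr16:68771195-68869440) encodes E-cadherin, the main adhesion receptor of epithelial adherens junctions. In MCF10A 6 of its 1183 exonic cytosines were in the file at all, with a highest coverage of 6, so that no ratio can be given. In MDA-MB-468 it had 108 kept sites with a mean coverage of 19.5, all in the CDS (74) and 3′UTR (34). Its unconverted share was 1.56% (1.12 to 2.19%), and no site was called. At a coverage of 20, 4 unconverted reads were the fewest called in that library, so a methylation ratio under 20% was not detectable there.

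CDH3 (chr16:68670092-68761371) encodes P-cadherin, which is found in the basal cells of the mammary gland. In MCF10A 94 sites were kept, with a mean coverage of 11.5 and a highest of 16. The unconverted share was 4.63% (3.53 to 6.05%), higher than in 95.9% of the genes with at least as many counts. That set includes every gene with more counts, and the unconverted share went down with coverage. Such ranks are therefore not at like coverage. The CDH3 share was 5.96% in the CDS and 1.75% in the 3′UTR. Its 3 m5C sites were in exon 5, at chr16:68712462 (4 of 11, 36.4%), chr16:68712469 (5 of 13, 38.5%; 17.7 to 64.5%) and chr16:68712470 (4 of 13, 30.8%). The cytosine between them at chr16:68712466 had 0 of 12 (up to 24.2%). These 3 sites were paired in a maximum expected accuracy (MEA) structure predicted for a CDH3 transcript. Without paired sites the share of CDH3 in MCF10A was 2.78%.

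In MDA-MB-468 CDH3 had 150 kept sites, a share of 1.01% (0.695 to 1.47%) and no m5C site, and the exon 5 sites had 1 of 13, 0 of 16 and 1 of 16. Over the 53 sites kept in both lines the share was 7.92% (6.06 to 10.3%) in MCF10A against 1.37% (0.785 to 2.38%) in MDA-MB-468. Of these sites, 28 were lower in MDA-MB-468 and 5 higher. Neighboring cytosines share reads, so neither these sites nor those of exon 5 are independent measurements. The intervals do not overlap, but the MCF10A sites rest on a median coverage of 12, and no single site passed the test between the lines (smallest adjusted p = 1.0, two-sided Fisher's exact test).

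EPCAM (chr2:47572297-47614740), a homophilic adhesion molecule of epithelia, was in the MCF10A file at 1 cytosine with a coverage of 5. In MDA-MB-468 175 of its 450 exonic cytosines were kept, with a mean coverage of 33.3 and an unconverted share of 2.92% (2.51 to 3.38%). That was higher than in 93.8% of genes with at least as many counts, a set not matched for coverage. The share was alike in its 5′UTR (2.82%), CDS (2.92%) and 3′UTR (3.01%). Its single m5C site was chr2:47600663 in exon 2, with 5 of 25 counts (20%; 8.86 to 39.1%; adjusted p = 0.0108, Fisher's exact test). The site and its surroundings are given next.

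EPCAM exon 2, called in MDA-MB-468: atcgtcaatgCcagtgtactt

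CTNNB1 (chr3:41236232-41301587) encodes beta-catenin, which links cadherins to alpha-catenin and is also the effector of Wnt signaling. It was the only member with kept sites in both lines and an m5C site in neither. Its 516 kept sites in MCF10A had an unconverted share of 1.56% (1.39 to 1.75%), and the 236 in MDA-MB-468 one of 1.91% (1.57 to 2.30%). Its deepest shared site, chr3:41280733, had 4 of 162 (2.47%; 0.964 to 6.18%) in MCF10A against 1 of 102 (0.980%; 0.173 to 5.35%) in MDA-MB-468. Over the 236 sites kept in both lines, 66 were lower and 88 higher in MDA-MB-468, and 0 had an unadjusted p under 0.05.

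JUP (chr17:39910856-39943183, minus strand) encodes plakoglobin, a catenin of both adherens junctions and desmosomes. In MDA-MB-468 it had 971 kept sites with a mean coverage of 40.5. Its unconverted share was 1.80% (1.68 to 1.94%) in all but 12.5% in the 5′UTR, against 1.66% in the CDS and 1.33% in the 3′UTR. Of its 12 m5C sites, 11 lay within 19 nt of the 5′UTR, at chr17:39942864-39942882, which is 82 to 100 nt from the start of the MANE Select transcript. They had methylation ratios of 28.6 to 66.7% at coverages of 11 to 19.

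The highest ratios in that stretch were at chr17:39942865 and chr17:39942866, each with 8 of 12 counts (66.7%; 39.1 to 86.2%). The deepest were chr17:39942881 and chr17:39942882, each with 7 of 19 (36.8%; 19.1 to 59.0%). Of the 13 cytosines of the stretch, those not called were chr17:39942871 (3 of 13, 23.1%) and chr17:39942870 (0 of 13, up to 22.8%), which are the lower-case pair cc between the 2 single capitals of the JUP sequence. The 13 sites had 0 to 8 unconverted counts and share most of their reads, so they are not independent measurements. None of the 11 was paired in the MEA structure.

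In MCF10A only 2 of those 11 cytosines had a coverage of 10 or more, with 0 of 10 at chr17:39942881 and 0 of 11 at chr17:39942882. The difference at the second had an unadjusted p of 0.0292 and an adjusted p of 1.0 in the two-sided Fisher's exact test, so it did not hold up against the number of sites tested. The other 9 cannot be compared.

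**Figure D3:**
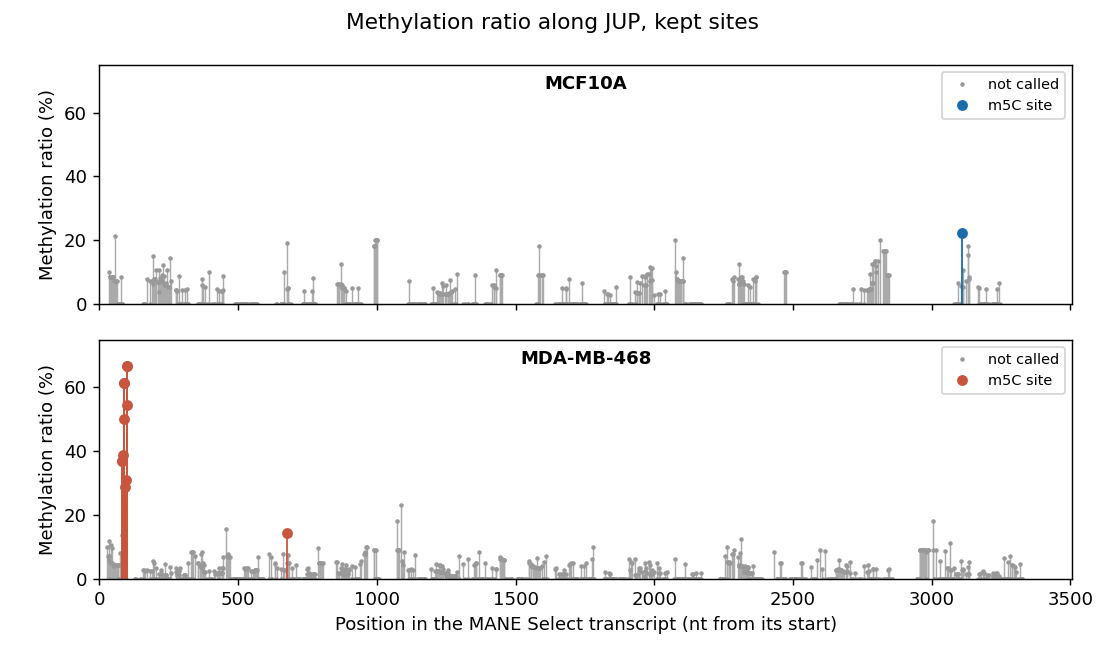
Methylation ratio (%) of each kept cytosine of JUP by its position in the MANE Select transcript (nt), in MCF10A above and MDA-MB-468 below, with m5C sites colored. The 11 sites at 82 to 100 nt in MDA-MB-468 reach 66.7%, and the remaining m5C site of each library lies elsewhere in the gene.

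The remaining m5C site of JUP in MDA-MB-468 was in exon 4 at chr17:39925383 (6 of 42, 14.3%), where MCF10A had 1 of 21 (4.76%). In MCF10A JUP had 607 kept sites at a mean coverage of 19.1. Its unconverted share was 3.01% (2.71 to 3.33%), above that of 90.5% of genes with at least as many counts, unmatched for coverage. Its 1 m5C site there was in the 3′UTR, at chr17:39911257, with 4 of 18 counts (22.2%; 9.0 to 45.2%), against 2 of 72 (2.78%) in MDA-MB-468. Over the 607 sites kept in both, the share was 3.01% in MCF10A, against 1.57% (1.44 to 1.71%) in MDA-MB-468. The median coverage of those sites was 19 and 47.

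DSP (chr6:7541571-7586947) encodes desmoplakin, which ties the desmosomal plaque to keratin filaments. It showed the same order. In MCF10A the unconverted share was 2.73% (2.47 to 3.0%) over 767 sites, and in MDA-MB-468 it was 1.44% (1.36 to 1.53%) over 1229 sites. Over the 754 sites kept in both lines it was 2.75% (2.5 to 3.04%) and 1.42% (1.33 to 1.51%), at median coverages of 17 and 66. Of those sites 273 were lower and 251 higher in MDA-MB-468, and all 27 with an unadjusted p under 0.05 (two-sided Fisher's exact test) were lower. With shares this low and these coverages, DSP could hardly give such a p unless the shallower library was the higher. The common direction of those 27 single sites was thus not read as a result. Whether depth had a part in the unconverted shares of DSP was not tested. Its 1 m5C site was in MCF10A, in exon 24 at chr6:7585342, with 4 of 12 counts (33.3%; 13.8 to 60.9%), and MDA-MB-468 had 0 of 29 there. This difference passed only when adjusted over the sites called in at least 1 line (adjusted p = 0.0368, Fisher's exact test). Sites enter that set through a high ratio in 1 of the 2 libraries compared, so passing there is not independent support. In MDA-MB-468, none of the 1229 sites was called although coverage reached 354.

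JUP exon 14, called in MCF10A: aaatccaaaaCttctcttgaa
DSP exon 24, called in MCF10A: ctggaagaatCgagccccatt

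Both called cytosines, at the capitals, rest on 4 unconverted counts, and unlike the JUP exon 1 stretch neither has a called neighbor within 10 nt. For CDH3, JUP and DSP the MCF10A sites were the shallower ones, and the unconverted share went down with coverage in both libraries. The part of coverage in the higher MCF10A shares of these 3 genes was not tested.

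VIM (chr10:17270240-17279592) encodes vimentin, the intermediate filament of mesenchymal cells. In MCF10A 486 of its 618 exonic cytosines were kept, at a mean coverage of 699 and a highest of 3145. Its unconverted share was 1.25% (1.22 to 1.29%), with 0.852% in the 5′UTR and 1.27% in the CDS. It had 3 m5C sites, all in the CDS and none within 10 nt of another. They were chr10:17271646 in exon 2 (63 of 1800, 3.50%), chr10:17275908 in exon 5 (18 of 289, 6.23%) and chr10:17278376 in exon 9 (7 of 39, 17.9%). In MDA-MB-468 11 cytosines of VIM were in the file, with 68 counts in all and a highest coverage of 7, so none could be compared.

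FN1 (chr2:216225163-216300796, minus strand) encodes fibronectin, which cells bind through integrins. It took 7.90% of all kept nuclear counts in MCF10A. Of its 2313 exonic cytosines, 2196 were kept there, with a median coverage of 1076 and a highest of 15553. The unconverted share was 1.25% (1.24 to 1.26%), and 8.42% of its sites had no unconverted count, the lowest such share of any member. It had 31 m5C sites, of which 26 had a ratio under 5% and none reached 20%. Its 5′UTR held 5 of them among 98 kept sites, its CDS 26 among 1967 and its 3′UTR 0 among 131.

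Ratios this low were called only at high coverage. At a coverage of 4411 in FN1, 122 unconverted counts (2.77%) were enough for a call, while at a coverage of 10 the fewest called were 4 (40%) and at 100 they were 9 (9.0%). The highest ratio was 16.7% at chr2:216300783 in the 5′UTR, at a coverage of 30 (5 counts; 7.34 to 33.6%). In the CDS the highest were chr2:216273054 in exon 16 (30 of 260, 11.5%; 8.20 to 16%) and chr2:216249585 in exon 29 (56 of 595, 9.41%; 7.32 to 12%).

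FN1 exon 16, called in MCF10A: ggatggggagCagagtttgat
FN1 exon 29, called in MCF10A: tacggagagaCaggtacagca

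In both of these sequences the called cytosine is followed by A. Of the 31 m5C sites of FN1, 12 were in the trinucleotide GCA. Over all 10 genes in MCF10A, 15 of 529 GCA sites were called (2.84%), against 0.594% of GCA sites over all nuclear kept sites, and 12 of those 15 were on FN1. For ACA the members had 6 of 483 in MCF10A (1.24%), beside 0.303% over all, and for CCG 8 of 396 (2.02%), beside 2.31%. In MDA-MB-468 1 of 392 member GCA sites was called (0.255%), beside 0.493%. The FN1 sites had a median coverage of 1076, beside 18 for all kept sites of MCF10A, so these shares are not at like coverage.

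FN1 had 4 stretches of m5C sites within 10 nt. That in exon 1 held 6 sites at chr2:216300501-216300513 with ratios of 3.26 to 4.20% and coverages of 3609 to 4637, and 3 of the 6 were paired in the MEA structure. Near the start of the transcript, 3 of 5 kept cytosines at chr2:216300770-216300783 were called at 4.32 to 16.7%, with coverage going from 694 down to 30 toward the start. The other 2 held 2 sites each, in exon 11 (2.81 and 4.6%) and exon 9 (3.16 and 3.41%). In MDA-MB-468 FN1 had 95 kept sites with a mean coverage of 13.5 and a share of 1.17% (0.713 to 1.93%). Only 1 of the 31 m5C sites was kept there, chr2:216298084, with 0 of 10 against 252 of 5341 (4.72%) in MCF10A.

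**Figure D4:**
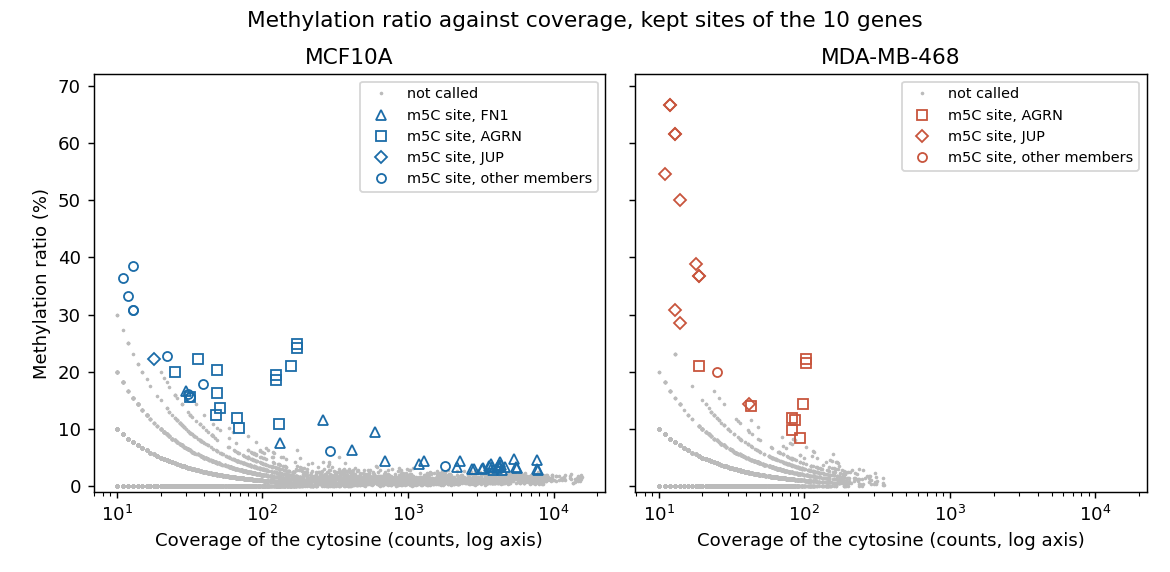
Methylation ratio (%) against coverage (counts, log axis) for every kept site of the 10 genes, MCF10A on the left and MDA-MB-468 on the right, with m5C sites as open colored symbols by gene. The m5C sites of FN1 in MCF10A sit at 2.77 to 16.7%, most of them at the highest coverages, those of JUP in MDA-MB-468 reach 66.7% at coverages of 11 to 19, and those of AGRN lie between 8.51 and 24.9% in the 2 libraries.

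CD44 (chr11:35160429-35253949) encodes a hyaluronan receptor with many splice forms. It had 648 kept sites in MCF10A with a share of 2.0% (1.86 to 2.16%) and 315 in MDA-MB-468 with 1.81% (1.59 to 2.07%). The share was highest in the 5′UTR in both, at 3.79% and 4.34% over 58 sites each. MCF10A had 5 m5C sites. The deepest with a ratio of 20% or more was chr11:35160746 in the 5′UTR, 29 nt from the transcript start (5 of 22, 22.7%; 10.1 to 43.4%), where MDA-MB-468 had 1 of 11 (9.09%). The other 4 were in the 3′UTR, 3 of them in the stretch at chr11:35253093-35253105 with 5 of 31, 5 of 32 and 5 of 32 counts. MDA-MB-468 had 0 of 15 at each of those 3, and the unadjusted p was 0.157, 0.162 and 0.162. A difference of this size was not detectable at these coverages. Where the lower coverage was 10 to 19, the smallest difference among all nuclear sites found differential was 21.1 percentage points.

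AGRN (chr1:955500-991498) encodes agrin, which gathers acetylcholine receptors at the neuromuscular junction and is part of epithelial and vascular basement membranes. It was covered along nearly its whole length in both lines, with 2321 of its 2506 exonic cytosines kept in MCF10A (mean coverage 68.6) and 2137 in MDA-MB-468 (44.3). The unconverted share was 1.61% (1.55 to 1.67%) and 1.44% (1.37 to 1.52%). AGRN had 15 m5C sites in the MCF10A library, and MDA-MB-468 had 9, all in the CDS. The 6 called in both lines were the only sites of the 10 genes that were. They make 10.2% of the 59 m5C sites of MCF10A and 27.3% of the 22 of MDA-MB-468, beside 29.9% and 42.8% of all nuclear m5C sites. Only 25 of the 59 and 12 of the 22 were kept in the other line. Of those, 6 of 25 (24%) and 6 of 12 were called there, beside 48.2% and 63% of all nuclear m5C sites kept in the other line.

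The exon 25 stretch, 4432 to 4446 nt into the transcript, held 5 of those 6. In MCF10A its 6 m5C sites had 14 of 130 counts (10.8%), 23 of 124 (18.5%), 24 of 124 (19.4%), 33 of 157 (21.0%), 43 of 173 (24.9%) and 42 of 174 (24.1%), from chr1:984696 to chr1:984710. In MDA-MB-468 the same cytosines had 7 of 84 (8.33%, not called), 10 of 83 (12%), 10 of 86 (11.6%), 14 of 98 (14.3%), 22 of 102 (21.6%) and 23 of 103 (22.3%). The MCF10A ratio was the higher at each of the 6. These cytosines lie within 15 nt and share reads, so they are not independent measurements. In both lines the last pair of cytosines had the highest ratios of the stretch.

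None of the 6 passed the test between the libraries, with unadjusted p between 0.182 and 0.771 in the two-sided Fisher's exact test and adjusted p of 1.0. The cytosines in between, chr1:984703 and chr1:984707, were converted in nearly all reads of both lines. They had 2 of 157 (1.27%) and 1 of 171 (0.585%) in MCF10A, and 1 of 97 (1.03%) and 2 of 102 (1.96%) in MDA-MB-468. They are the lower-case c of cact and of gcg in the AGRN exon 25 sequences. Of the 6 m5C sites, 1 (chr1:984701) was paired in the MEA structure.

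**Figure D5:**
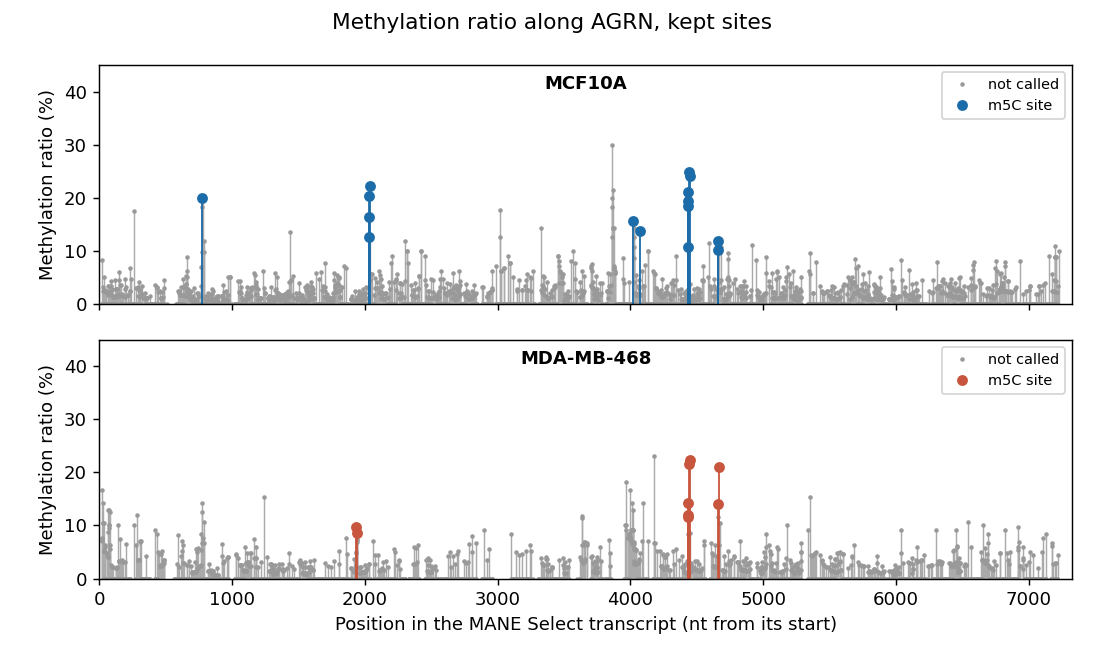
Methylation ratio (%) of each kept cytosine of AGRN by its position in the MANE Select transcript (nt), in MCF10A above and MDA-MB-468 below, with m5C sites colored. The stretch at 4432 to 4446 nt was called in both and reached 24.9% and 22.3%, while the sites at 2029 to 2040 nt were called in MCF10A alone and those at 1935 to 1942 nt in MDA-MB-468 alone.

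The sixth shared site was in exon 26, chr1:985038, with 8 of 67 (11.9%) in MCF10A against 6 of 43 (14%) in MDA-MB-468. Beside it, chr1:985037 was called in MCF10A (7 of 69, 10.1%) and not in MDA-MB-468 (5 of 43, 11.6%), and chr1:985044 was called in MDA-MB-468 (4 of 19, 21.1%) and not in MCF10A (5 of 49, 10.2%). No difference between the libraries was detected at either neighbor (unadjusted p = 1.0 and 0.253, two-sided Fisher's exact test), although each was called in 1 line alone.

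Exon 10 of AGRN held a stretch in each line that was not called in the other. In MCF10A chr1:979380-979391 had 10 of 49 (20.4%), 8 of 49 (16.3%), 6 of 48 (12.5%) and 8 of 36 (22.2%) at its 4 m5C sites, against 1 of 36, 1 of 36, 0 of 35 and 0 of 23 in MDA-MB-468. The unadjusted p ran from 0.0178 to 0.0721. Upstream in the same exon the order was turned. In MDA-MB-468 chr1:979286 had 8 of 82 (9.76%) and chr1:979293 had 8 of 94 (8.51%), and the 4 kept cytosines between them had 7.32 to 8.24% without being called. In MCF10A these 6 had 0 to 2 unconverted counts of 139 to 172. After adjustment over all 812729 sites kept in both lines none of these differences passed. When only sites called in at least 1 line were adjusted over, chr1:979286 and chr1:979293 passed (adjusted p = 0.0171 and 0.00283, Fisher's exact test). That set is chosen by a high ratio in 1 of the 2 libraries compared, so passing in it is not independent support. The difference at chr1:979293 had the smallest p of any member site, 1.99e-04 (adjusted p over all sites = 0.181, two-sided Fisher's exact test).

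Over all 4167 member sites kept in both lines, 0 were differential in either direction in the two-sided Fisher's exact test. Adjusted over the sites called in at least 1 line alone, 1 was lower and 2 were higher in MDA-MB-468, the DSP and AGRN sites given above. Beside the count over all sites stand 0.0691% of all sites that were lower and 0.0202% that were higher in MDA-MB-468. At an unadjusted p under 0.05 there were 41 lower (0.984% of the member sites, beside 0.743% of all sites) and 17 higher (0.408%, beside 0.400%). AGRN had 4 of the lower and 15 of the higher sites, JUP 8 and 1, and DSP 27 of the lower. By median coverage, MCF10A was the shallower library for DSP (17 against 66) and JUP (19 against 47). For AGRN it was the deeper (67 against 37). Most of these sites were thus higher in the shallower library, while the 1 such site of CD44 (52 against 24) was lower there. As with DSP above, neither the direction of these counts nor the member share of lower sites was read as a result. The part of depth was not tested. After chr1:979293, and named for their small p after the values were seen, came 2 DSP sites, chr6:7585580 (4 of 35 in MCF10A against 0 of 238 in MDA-MB-468, adjusted p = 0.205) and chr6:7583192 (4 of 25 and 0 of 164, adjusted p = 0.216, both by Fisher's exact test).

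The reach of this test was set by the shallower library. Among all nuclear sites found differential, the smallest difference was 21.1 percentage points where the lower coverage was 10 to 19, 10.3 points at 20 to 49 and 6.34 points at 50 to 199. The median coverage of the shared member sites was 39 in MCF10A, with 38 in MDA-MB-468. For CDH1, EPCAM and VIM no site was kept in both lines, and the methylation of these 3 mRNAs could not be compared.

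In MCF10A 31 of the 59 m5C sites (52.5%) had another m5C site within 10 nt, beside 86.2% of all nuclear m5C sites of the library. In MDA-MB-468 it was 20 of 22 (90.9%) beside 86.8%. The CDS held 48 of 6111 kept sites called in MCF10A (0.785%), the 5′UTR 6 of 485 (1.24%) and the 3′UTR 5 of 1039 (0.481%), beside 0.615%, 2.24% and 0.837% of all kept nuclear sites in the CDS, 5′UTR and 3′UTR. In MDA-MB-468 these were 11 of 4179 (0.263%), 11 of 406 (2.71%) and 0 of 831, beside 0.551%, 1.95% and 0.739%. All 11 in the 5′UTR were those of the JUP stretch. Of the MCF10A calls, FN1 gave 26 of the 48 in the CDS, at a mean coverage of 2209 there, and 5 of the 6 in the 5′UTR. The MCF10A shares of these regions thus rest largely on 1 deeply covered gene. In MCF10A 14 of the 59 m5C sites (23.7%) were paired in the MEA structure, beside 12.2% of the kept member sites. In MDA-MB-468 it was 3 of 22 (13.6%) beside 13.9%. None of the m5C sites lay on an exon of another gene.

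Other genes of the junctions and of the mesenchymal state were read from lists chosen by function. Of 10 mesenchymal and matrix genes, 8 had kept sites in MCF10A, 6 of them with m5C sites (73 sites, 1.06% of their kept sites, near the 0.960% of the library), and 4 had kept sites in MDA-MB-468 with no m5C site. Their summed level was 28.0 and 0.0919. COL4A2, a basement membrane collagen, had 35 m5C sites in MCF10A (highest ratio 72.4%), and the fibronectin receptor subunit ITGA5 had 17 (highest 19.8%). Of 6 transcription factors of the epithelial-mesenchymal transition, 5 had kept sites in MCF10A, where TWIST1 and TWIST2 had 9 and 6 m5C sites (1.96% of the kept sites of the list), while in MDA-MB-468 only SNAI1 had kept sites, 7 in number and none called.

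Of 10 tight junction genes, 7 had the higher level in MDA-MB-468 and 1 in MCF10A. In this list 4 had kept sites in MCF10A (summed level 0.152, 0 m5C sites among 671 kept). In MDA-MB-468 8 had them (3.59, 28 m5C sites, 1.19% beside 0.840% of the library). There CLDN3, a claudin of the paracellular seal, had 20 (highest ratio 38.9%). Of 10 desmosomal genes, 8 had kept sites in MCF10A (0.254, 2 m5C sites, 0.185%). In MDA-MB-468 5 had them (1.11, 27 m5C sites, 1.23%), with 18 on EVPL, which encodes envoplakin (highest ratio 50%). The MDA-MB-468 sum was mostly EVPL (0.614) and PKP3 (0.445), and 6 of the 10 genes had the higher level in MCF10A, among them DSG2 (0.0759) and PPL (0.0663), which had no kept site in MDA-MB-468. Of 10 adherens junction genes, 9 had kept sites in each line, with a summed level of 2.88 in MCF10A against 2.26. In level, 5 of them were higher in each line. The 10 had 32 m5C sites on 7 genes in MCF10A (0.726%, library 0.960%) against 51 on 6 in MDA-MB-468 (1.14%, library 0.840%). ACTN1, an actin crosslinker, had 19 of the latter, with ratios up to 23.5%, and 1 in MCF10A.

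Of 8 partners of agrin and CD44, 5 had kept sites in MCF10A with 43 m5C sites (1.66%, beside 0.960% of the library). In MDA-MB-468 4 had kept sites, 1361 in number and 0 called, beside 0.840% of the library. MMP14, a membrane protease that cleaves CD44, had 34 of the 43 (highest ratio 44.4%). It had no kept site in MDA-MB-468, so these 34 could not be compared. EZR, which links CD44 to actin, had the other 9, at a level of 0.189, and none in MDA-MB-468 at a level of 1.33. The agrin receptor genes LRP4 and MUSK had no kept site in either line.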

How the data were processed

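After trimming and alignment to hg19, the authors deposited raw counts of unconverted and converted reads per cytosine and strand, with no normalization. The labels name Trim Galore and Bismark, while the methods name Trim Galore and MeRanTK with a base quality of 30 and at most 10 duplicate reads. The duplicate limit can lower the counts of abundant mRNAs. The lowest coverage in the deposited files is 5 and introns are present, so they hold the data before the filters for coverage, exons and structure that the methods describe.

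Cytosines covered 10 times or more on same-strand exons of GENCODE release 44 basic transcripts or on the mitochondrial chromosome were kept, with 60347403 nuclear counts in MCF10A and 42058400 in MDA-MB-468. Exonic regions were ranked 5′UTR, CDS, 3′UTR. For m5C sites, Fisher's exact test (one-sided) set each site against the summed counts of all kept sites. Between the libraries it was two-sided. Both had Benjamini-Hochberg adjustment over all sites. With 1 library per line these p-values measure counting error alone. QNB, which the methods use for differential sites, was not used. MEA structures came from ViennaRNA 2.7.2 (70 degrees, pairing distance 150 nt, gamma 0.1) in windows of 2000 nt in steps of 1000 nt. A site counted as paired when any window of any basic transcript of its gene had it paired. Python 3.11.15, pysam 0.24.0, pandas 2.3.3, numba 0.67.0, scipy 1.17.1, matplotlib 3.10.9 and numpy 2.4.6 were used, and the tests were tested on simulated data.

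Named sites are, per gene and line, the m5C site of highest coverage with a ratio of at least 20%, every stretch of m5C sites within 10 nt, the deepest shared site of a gene without m5C sites, and, from the lists, the 3 genes per line with most m5C sites. Single m5C sites of VIM, FN1, JUP and AGRN outside this rule were named after their values were seen. The 10 genes and the lists were chosen with earlier results of these data known.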

Additional observations from a re-analysis of the deposited data

Results flagged for a closer look

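On the opposite strand of FN1 exons in MCF10A, 11 cytosines at chr2:216296585-216296611 had a coverage of 10 each, and 109 of their 110 counts were unconverted (99.1%; 95 to 99.8%). They drew attention because they lie outside the exons of the plus strand, which the comparisons do not use, and exceed the nonconversion rate of 1.99%. FN1 is the gene with most counts in this library, its own strand had 1.25% unconverted, and no member gene had such sites in MDA-MB-468. The cause was not tested.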

How the results depend on the processing

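The number of m5C sites of the 10 genes in MCF10A stayed between 45 and 64 under the other settings except a methylation ratio of at least 20%, which left 13, and leaving out FN1, which left 28. In MDA-MB-468 it stayed between 15 and 22 except at a minimum coverage of 20 or 30, each of which left 10 and leaves out the whole JUP exon 1 stretch. The genes with an m5C site in MCF10A were 4 at a minimum coverage of 30 instead of 7. The unconverted share of all members in MCF10A was 0.889% as a median of ratios, 1.44% over sites kept in both lines and 1.48% without FN1. In MDA-MB-468 it was 0% as a median, 1.49% at a minimum coverage of 20 and 1.49% over sites kept in both lines. The order of the lines turned for the median alone. Over single genes, 30 of 64 shares moved by more than their interval.

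Adjusted only over the 12052 sites called in at least 1 line, 31 of them on members, 1 member site was lower in MDA-MB-468 (chr6:7585342 of DSP, adjusted p = 0.0368) and 2 were higher (chr1:979286 and chr1:979293 of AGRN, adjusted p = 0.0171 and 0.00283, Fisher's exact test). Under the other settings, a logistic Wald test among them, 0 were differential in each direction. Coverage levels from sites of coverage 5 up moved by over 1.5 times for 6 values, among them CDH3 in MCF10A (0.0349) and FN1 in MDA-MB-468 (0.0279), and the order of the lines was kept for each gene. CDH1 and EPCAM in MCF10A were then at 4.62e-04 and 1.84e-04 and VIM in MDA-MB-468 at 0.00262.

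The windowed structures, the background without FN1, the totals without FN1 and the coverage from 5 were added after seeing the data. The planned structure filter with full-length folding was not run. No paired analysis was possible because each line has 1 library, and for the same reason no library was left out.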

Other observations

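In the epithelial marker list, KRT19 in MCF10A stood apart. At a level of 0.0202 it had 42 kept sites and 498 counts, 63.9% of them unconverted, and 40 of the 42 were m5C sites, with ratios up to 91.7%. In MDA-MB-468, at a level of 30.6, its 401 kept sites had 1.45% unconverted and 15 m5C sites with ratios up to 5.89%.

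Introns of the members were covered unevenly. In MDA-MB-468 JUP had 451 intronic cytosines with a coverage of 10 or more (1.03% unconverted; 0.801 to 1.33%), AGRN 472 (1.33%; 1.07 to 1.63%) and CD44 111 (0.795%; 0.465 to 1.36%). In MCF10A AGRN had 17 and CD44 2, while FN1 had 1032 with 2.04% unconverted (1.88 to 2.22%), against 1.25% on its exons.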
